A study of Mus musculus with 28 samples.

Results

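The genes described here are 9 transcription factors and coactivators that mark the otic placode, the thickened ectoderm from which the inner ear forms: Pax2, Pax8, Six4, Eya1, Eya4, Gata3, Dlx5, Dlx6 and Tbx1. They were chosen by name, and all 9 are among the 19421 genes of the deposited table and among the 16837 genes tested. Their RNA was measured in embryoid bodies (EBs), the aggregates that mouse embryonic stem cells form when they are allowed to differentiate, at day 6 of culture. The 7 lines were made in A2loxCre cells and carry a doxycycline (Dox) inducible cassette with Atoh1 (iAtoh1), Gfi1 (iGfi1), Pou4f3 (iPou4f3), Gfi1 and Atoh1 (iG+A), Gfi1 and Pou4f3 (iG+P), Pou4f3 and Atoh1 (iP+A) or Gfi1, Pou4f3 and Atoh1 (iGPA). In every cassette the factors are joined by 2A peptides and end with mVenus, Atoh1 bears a 3xFlag tag and Pou4f3 a 3xMyc tag. Dox libraries came from mVenus+ cells sorted after 48 h in 2 µg/ml Dox added at day 4, while No Dox libraries came from whole, unsorted EBs of the same line that carry the same cassette. Each of the 14 groups holds 2 libraries, made from different clones of the line, so p-values carry the spread between clones. Within a line, Dox treatment and cell sorting always went together and cannot be told apart, and in these bulk samples fewer cells of a type and less RNA per cell cannot be told apart either.

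Otic induction proceeds through a shared preplacodal field, in which homeobox factors such as Six4 bind DNA and Eya proteins, which are phosphatases without DNA-binding activity of their own, act as their coactivators. FGF signals then bring on Pax8 and Pax2, the paired-box factors of the early otic field, while Dlx5 and Dlx6 are homeobox factors of its dorsal part, Gata3 a zinc-finger factor of the placode and later sensory areas, and Tbx1 a T-box factor of the otocyst. None of the 9 genes is specific to the ear, since most of them also act in kidney, pharyngeal arches, muscle or brain. In the mouse build NCBIM37 (mm9), which the authors used, Eya1 lies at chr1:14159035-14300281, Eya4 at chr10:22823974-23069701, Six4 at chr12:74201246-74214401, Pax2 at chr19:44830539-44912758, Pax8 at chr2:24276071-24331119, Gata3 at chr2:9778705-9811661, Tbx1 at chr16:18581806-18588113, Dlx5 at chr6:6827805-6832085 and Dlx6 at chr6:6813334-6818568. The transgenes Atoh1, Gfi1 and Pou4f3 act later in the ear, in hair cells (HCs), the sensory receptor cells of hearing and balance.

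Promoter sequences of RefSeq (build GRCm38.p6, 250 bases before to 50 after a transcription start) were found for 6 of the 9 genes, with 11 promoters in all. Those of Eya4 and Pax8 are shown because these genes had the highest Dox effects in lines with Pou4f3 and in iG+A cells, respectively, and that of Gata3 because it had the highest level per kb in untreated EBs. They lie at chr10:23349841-23350140 (minus strand, the first of 2 promoters of Eya4), chr2:24475550-24475849 (minus strand) and chr2:9878551-9878850 (minus strand). Capitals mark matches to the E-box letters CANNTG, the general recognition letters of basic helix-loop-helix factors such as Atoh1.
Eya4: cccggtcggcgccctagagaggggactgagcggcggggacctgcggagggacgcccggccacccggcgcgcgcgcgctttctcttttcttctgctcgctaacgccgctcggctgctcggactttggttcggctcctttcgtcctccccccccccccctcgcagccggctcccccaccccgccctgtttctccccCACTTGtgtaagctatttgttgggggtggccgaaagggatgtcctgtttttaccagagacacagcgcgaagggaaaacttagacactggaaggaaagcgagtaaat
Pax8: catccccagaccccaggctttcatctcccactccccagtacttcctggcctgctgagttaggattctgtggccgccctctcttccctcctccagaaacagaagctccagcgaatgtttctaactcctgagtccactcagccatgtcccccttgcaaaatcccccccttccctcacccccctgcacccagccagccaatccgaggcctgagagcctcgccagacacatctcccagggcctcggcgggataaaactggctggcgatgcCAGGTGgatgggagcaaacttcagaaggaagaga
Gata3: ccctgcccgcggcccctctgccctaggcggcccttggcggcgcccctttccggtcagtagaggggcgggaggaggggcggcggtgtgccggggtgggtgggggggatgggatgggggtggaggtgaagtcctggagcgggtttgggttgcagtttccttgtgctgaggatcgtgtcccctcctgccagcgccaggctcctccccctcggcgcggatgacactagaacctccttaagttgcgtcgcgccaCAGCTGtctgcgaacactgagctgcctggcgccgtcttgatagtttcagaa
Each of these 3 windows holds 1 match to CANNTG, as 72.3% of all 32851 promoters hold at least 1. The match in Gata3 also fits CAGCTG, which is contained in CANNTG and was found in 16.3% of all promoters. None of the 3 windows holds CAGATG (in 17.2% of all promoters), AATCAC (core letters of Gfi1 sites, 10.4%) or ATTAAT (letters of POU factor sites, 4.75%), each searched on both strands. These matches are descriptions of the letters in the windows and not binding sites.

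The transgenes followed the labels: Atoh1 ran from 12816 to 21242 normalized counts in Dox libraries with its cassette and from 29.6 to 120.1 in the matching No Dox libraries, Gfi1 from 8119 to 12487 against 57.9 to 119, and Pou4f3 from 4694 to 19883 against 2.22 to 72.6. The deposited values are log2(normalized count + 1), from which normalized counts are given here. Estimated depth was 30.4 to 48.0 M reads per library, and a value of about 1 normalized count stood for 1 read (0.815 to 1.22), so that Pax8, Pax2, Dlx5 and Dlx6, with mostly under 50 counts, rest on few reads. Calls needed both an adjusted p under 0.05 (limma, Benjamini-Hochberg over the 16837 genes) and a log2 difference of at least 1.5. Differences are on the log2(normalized count + 1) scale, on which changes of low genes come out too small.

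Without Dox, 4 of the genes were readily measured and the other 5 had few counts. Gata3 had 447 to 847 normalized counts (median 756) in the 14 untreated libraries and Six4 had 614 to 948 (median 821). Eya1 had 148 to 314 (median 215) and Eya4 had 30.5 to 162 (median 84.0). Tbx1, Dlx5, Pax2, Dlx6 and Pax8 stayed at 27.6 counts or below in all 14 libraries, with medians of 14.1, 10.3, 8.22, 7.57 and 2.40. To compare genes, counts were divided by the length of the longest coding transcript in kb. On that scale of levels the order was Gata3 (mean 216 counts per kb, 139 to 264 over n = 14 libraries), Six4 (145), Eya1 (49.6), Eya4 (19.8), Dlx5 (8.20), Tbx1 (7.69), Dlx6 (4.00), Pax2 (2.12) and Pax8 (1.11). The first 5 held their order in 14 of 14 libraries for each pair of neighbours, although only the ranges of Six4 and Eya1 did not overlap. Dlx5 was above Tbx1 in 7 of 14 libraries, so that these neighbours cannot be ordered, and Dlx6 was above Pax2 in 10 of 14.

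**Figure D1:**
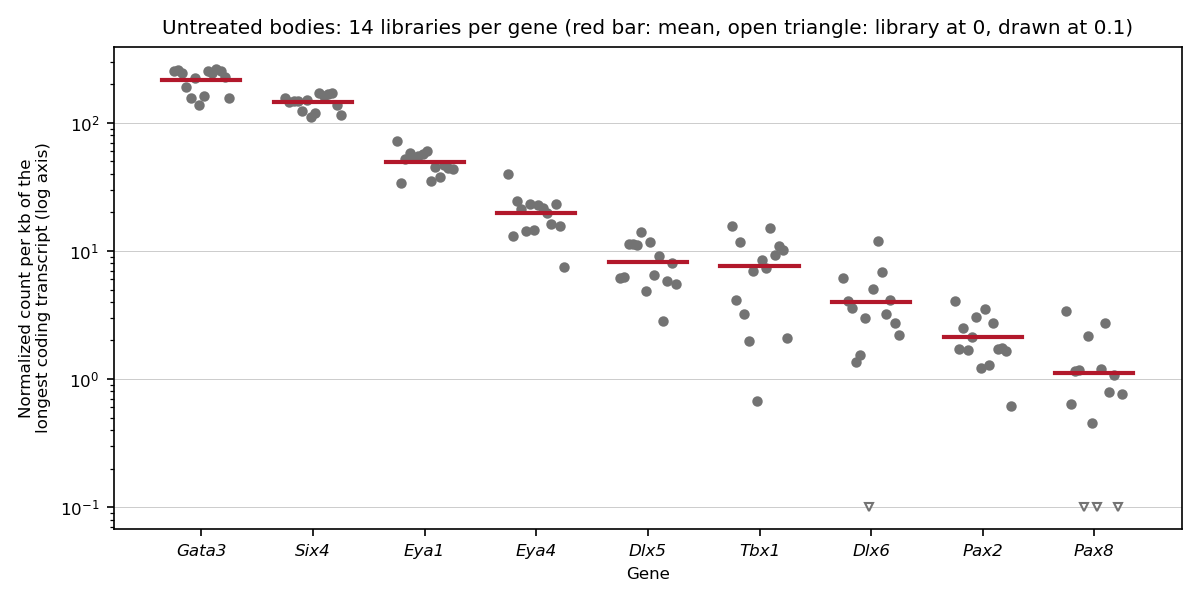
Level of each of the 9 genes in the 14 untreated libraries, as normalized counts per kb of the longest coding transcript on a log axis, with the mean as a red bar and libraries at 0 as open triangles at the bottom. Gata3 (mean 216) and Six4 (145) lie highest, and Pax8 (1.11) lies lowest and is at 0 in some libraries.

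Untreated levels varied between clones. In iAtoh1 EBs without Dox, replicate 1 had 314 counts of Eya1, 162 of Eya4 and 27.6 of Tbx1, against 148, 54.0 and 7.31 in replicate 2, so replicate 1 was higher for all 3 genes. Between the 7 untreated lines, an F test (limma) called 1 of the 9 genes, Six4 (F = 4.65, adjusted p = 0.0455), while 12.1% of all genes tested were called. Six4 was lowest in iG+A EBs (614 and 668 counts) and highest in iG+P (948 and 909) and iP+A EBs (931 and 948). This call was lost without the low-count filter, with quantile normalization, without the mean-variance trend, with only the untreated libraries in the fit, and in some of the fits that left out a library.

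With Dox, the Eya coactivators moved most often. Of the 63 pairs of a gene and a line, 9 were past the threshold upward, against 4.62% of all such pairs over the genes tested, and 1 was past it downward, against 3.43%. The upward calls were Eya4 in 4 lines, Eya1 in 3 lines, and Pax8 and Tbx1 in iG+A cells, and the downward call was Dlx6 in iG+P cells. Lines with a single factor had 0 of 9 members called upward for Atoh1 (2.89% of all genes), 0 for Gfi1 (2.15%) and 1 for Pou4f3 (1.47%). Among lines with more factors, iG+A had 3 (7.35%), iG+P 2 (5.16%), iP+A 1 (4.7%) and iGPA 2 (8.65%). Downward, 1 of 9 was called in iG+P cells (5.36% of all genes) and 0 in iAtoh1 (2.52%), iGfi1 (2.67%), iPou4f3 (0.606%), iG+A (4.95%), iP+A (2.58%) and iGPA cells (5.31%). Beside the 0 members called by limma, 3 of the 9 in iAtoh1 and 2 in iGfi1 cells had an unadjusted p under 0.05, as had 35.6% and 38.2% of all genes tested. The median of the 9 differences was highest in iG+A cells, at 1.49 against -0.01 over all genes, and lowest in iGfi1 cells, at -0.59 against 0.02.

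**Figure D2:**
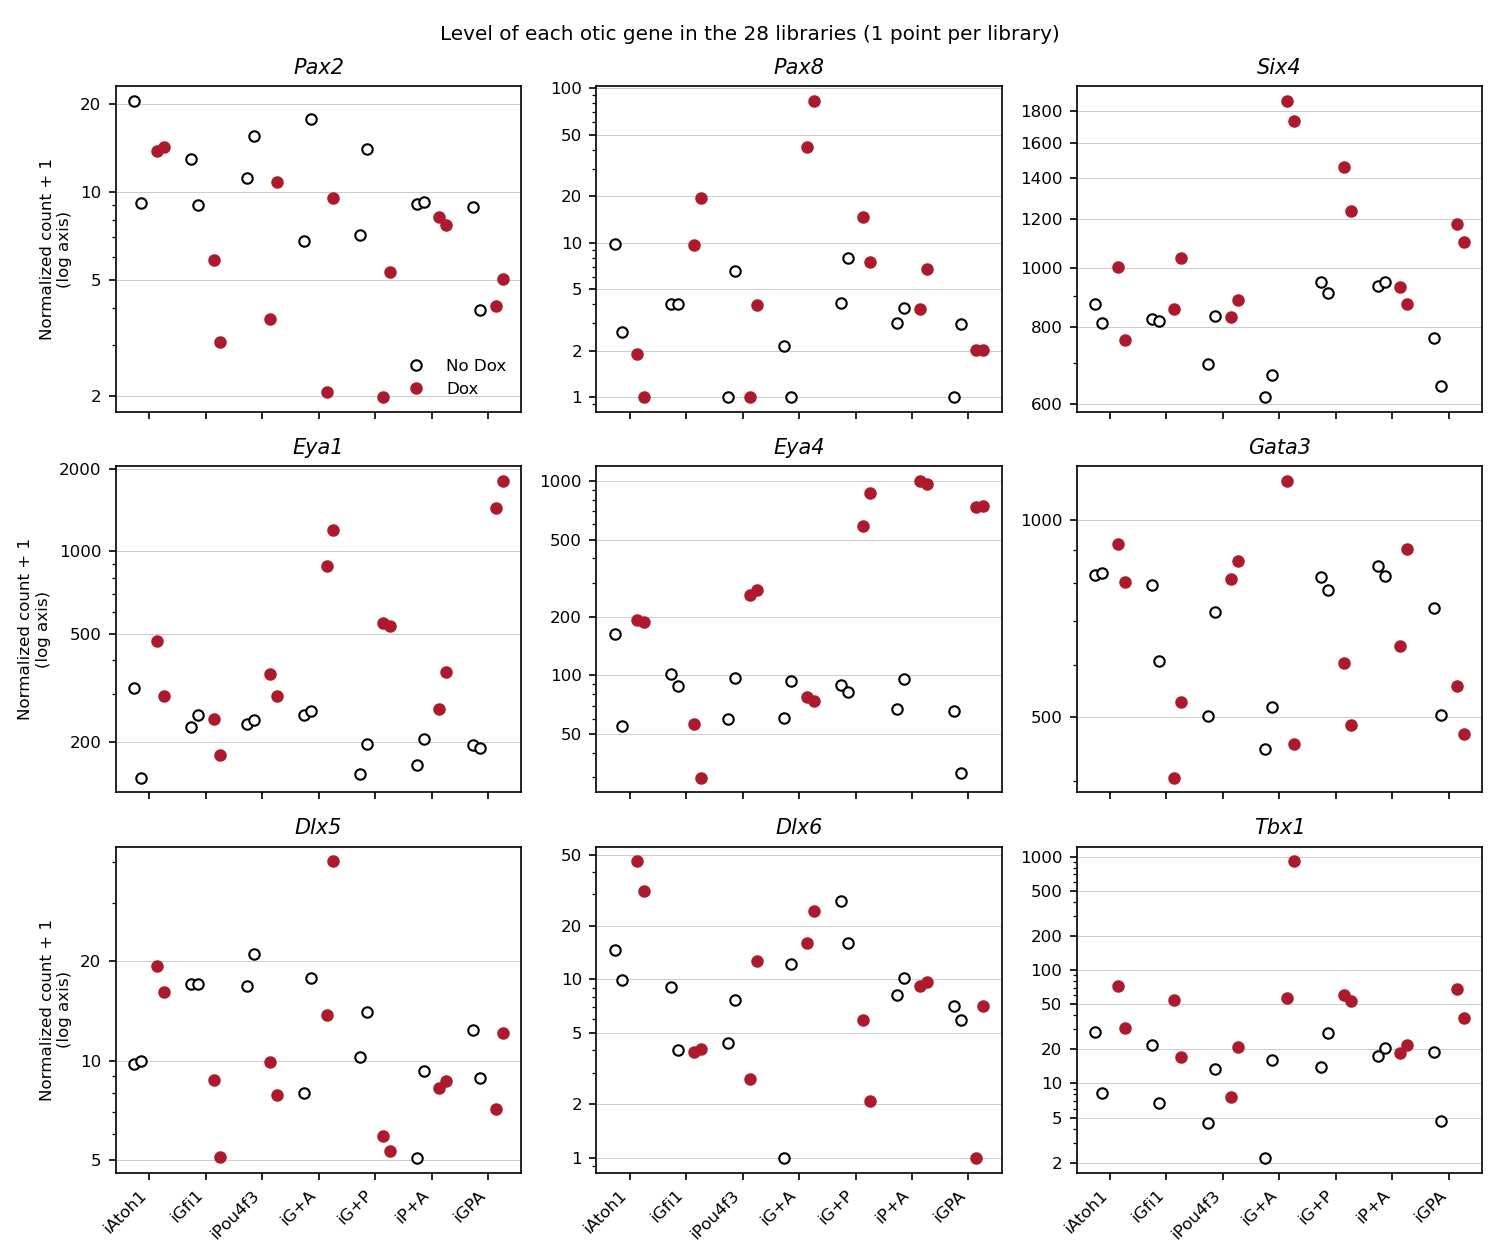
Normalized count plus 1 (log axis, a separate scale for each gene) of the 9 genes in the 7 lines, with open points for No Dox and red points for Dox, 1 point per library. Eya4 Dox points stand above No Dox in the 4 lines with Pou4f3, Eya1 in iG+A, iG+P and iGPA, and both Pax8 points and 1 of 2 Tbx1 points of iG+A Dox are the highest of all libraries.

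Eya4, an Eya coactivator whose loss causes deafness, was called upward in every line that carries Pou4f3. In iPou4f3 cells it had 58.8 and 95.9 counts without Dox and 257 and 274 with Dox. In iG+P cells the counts were 87.8 and 81.1 without Dox and 589 and 869 with Dox, and in iP+A cells they were 66.0 and 94.7 without and 997 and 969 with Dox. In iGPA cells they were 64.6 and 30.5 without and 738 and 746 with Dox. Groups did not overlap in any of these 4 lines, and Dox means stood 3.43, 8.63, 12.2 and 15.6 times above those without Dox. The log2 differences were 1.81 ± 0.43 (SE, adjusted p = 0.0176) for Pou4f3 alone, 3.07 (1.96e-05) for iG+P, 3.62 (5.19e-06) for iP+A and 4.03 (4.98e-07) for iGPA cells. The call in iPou4f3 cells was the weakest and was lost without No Dox replicate 1 (1.46, adjusted p = 0.214), without Dox replicate 1 (0.0978) or 2 (0.112), and with only its own groups in the fit (0.0813).

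In the 3 lines without Pou4f3, Eya4 did not pass the threshold. It had 59.3 and 92.9 counts without and 76.8 and 73.1 with Dox in iG+A cells, a difference of 0.01 ± 0.43 with a 95% interval from -0.88 to 0.91. In iGfi1 cells it had 101.1 and 86.9 without and 55.2 and 28.8 with Dox (-1.21, adjusted p = 0.0432, short of the fold threshold), and both Dox libraries lay below both untreated ones. This difference was -1.67 without Dox replicate 1 and -0.75 without Dox replicate 2. In iAtoh1 cells the Dox libraries had 192 and 187 counts, above untreated libraries of 162 and 54.0 (1.01, adjusted p = 0.0967). The difference was 1.79 without No Dox replicate 1 and 0.22 without No Dox replicate 2.

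Eya1, the paralog that acts first in the placode and whose loss in mice leaves the ear undeveloped, was called upward in each line that joins Gfi1 with another factor. Counts were 250.2 and 259.9 without and 886 and 1199.9 with Dox in iG+A cells. In iG+P cells the counts were 151 and 196 without and 543 and 529.8 with Dox, and in iGPA cells they were 195 and 189 without and 1439.8 and 1805 with Dox. Groups did not overlap in these 3 lines, and the iGPA Dox libraries were the highest of all 28. The log2 differences were 2.01 ± 0.29 in iG+A (adjusted p = 2.45e-05), 1.63 ± 0.29 in iG+P (2.21e-04) and 3.06 ± 0.29 in iGPA cells (1.22e-07). The call in iG+P cells lay close to the threshold, and it was lost without No Dox replicate 1 (1.45) and with all untreated libraries as one control (1.34).

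Outside these lines Eya1 was not called. It had 164 and 204 counts without and 264 and 362 with Dox in iP+A cells (0.75, adjusted p = 0.0647), and 314 and 148 without and 470.3 and 295 with Dox in iAtoh1 cells (0.79, 0.0557). In iPou4f3 cells it went from 233 and 239.6 to 356 and 294 (0.45, 0.44), and in iGfi1 cells from 226 and 251 to 242 and 178 (-0.19, 0.661). In iAtoh1 and iGfi1 cells the groups overlapped. Eya1 therefore passed the threshold in no line with a single factor.

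The ratio of both Eya paralogs varied between Dox groups. Per kb, Eya1 stood above Eya4 in all 14 untreated libraries. In Dox libraries the ratio of Eya1 to Eya4, as levels per kb, was highest in iG+A cells (10.8 and 15.4) and lowest in iP+A cells (0.249 and 0.351). It was also below 1 in both iG+P Dox libraries (0.868 and 0.574), and it was 1.84 and 2.28 in iGPA Dox libraries. In iGPA cells both paralogs were called, in iG+A cells only Eya1 of this pair, and in iP+A cells only Eya4. These ratios were not tested.

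Six4, a DNA-binding partner of Eya proteins, was abundant throughout and moved less. Its highest Dox effect was in iG+A cells, with 614 and 668 counts without and 1870.4 and 1736 with Dox. The difference of 1.49 ± 0.13 (95% interval 1.21 to 1.77, adjusted p = 1.26e-07) lay just short of the fold threshold. It passed in 3 of 38 alternatives: rescaling by the 75th percentile (1.52), without No Dox replicate 2 (1.55) and without Dox replicate 2 (1.55). The lowest difference over the alternatives was 1.17. In iGPA cells Six4 had 765 and 641 counts without and 1179 and 1098 with Dox (0.70, adjusted p = 3.32e-04), and in iG+P cells 948 and 909 without and 1460.0 and 1235 with Dox (0.53, 0.00460). Dox libraries lay above untreated ones in these 3 lines, as they did in iGfi1 cells (0.20, adjusted p = 0.292). Differences in iAtoh1, iPou4f3 and iP+A cells ran from -0.06 to 0.17.

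Pax8, the earliest Pax gene of the otic field, had at most 8.80 counts in untreated EBs and was called upward in iG+A cells. Counts in that line were 1.16 and 0 without and 40.4 and 81.7 with Dox, and these Dox libraries were the highest of all 28. The log2 difference was 5.32 ± 0.88 (adjusted p = 1.17e-04) and was called in all 37 alternatives that tested Pax8. The ratio of summed normalized counts was 105. An exact 95% interval on the sums, rounded to whole numbers, ran from 21.5 to 4858 and covers counting error only. In iGPA cells, which carry the same 2 factors and Pou4f3, Pax8 had 0 and 1.97 counts without and 1.02 and 1.01 with Dox. The difference between these Dox effects (iGPA minus iG+A) was -5.09 ± 1.25 on the log2 scale (adjusted p = 0.0246), 1 of 9 members being called downward in this comparison, against 0.6% of all genes, and 1 upward (Eya4), against 1.6%. This Pax8 call was lost without iG+A No Dox or Dox replicate 2, iGPA No Dox replicate 2 or either iGPA Dox library, with differences of -5.09 to -4.30, and also with a pseudocount of 0.5 (-5.54, adjusted p = 0.0632) and with only the groups compared in the fit (0.0646). In iGfi1 cells it had 3.00 in both untreated libraries and 8.70 and 18.6 with Dox (1.78, adjusted p = 0.147), and in iG+P cells 3.07 and 7.01 without and 13.7 and 6.51 with Dox (0.88, 0.485). With all untreated libraries as one control, both were past the threshold (2.17, 0.0171, and 1.78, 0.0354).

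Pax2, which follows Pax8 and persists in the otic vesicle, was not called in any line. It had 2.95 to 19.6 counts in the 14 untreated libraries and 0.981 to 13.2 with Dox, and its difference was below 0 in 6 of 7 lines. The lowest was in iG+P cells, with 6.13 and 13.0 counts without and 0.981 and 4.34 with Dox (-1.62 ± 0.74, adjusted p = 0.0999). With the replicate number of each line as a block, this difference was past the threshold (adjusted p = 0.0270), as it was with all untreated libraries as one control (-1.65, 0.0199). In iG+A cells, where Pax8 was called upward, Pax2 had 5.80 and 16.8 counts without and 1.06 and 8.54 with Dox (-1.31, adjusted p = 0.165). That difference was -2.41 without Dox replicate 2 and -0.21 without Dox replicate 1. The mean Dox effect over the 7 lines was -0.84 ± 0.28 (adjusted p = 0.0138), short of the fold threshold.

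Tbx1, a T-box factor of the otocyst and of pharyngeal mesoderm, was called upward in iG+A cells, where the 2 clones differed widely. It had 1.21 and 15.1 counts without and 55.6 and 905 with Dox, and the second Dox library was the highest of all 28. The difference was 5.25 ± 1.14 (adjusted p = 0.00127), 3.25 (0.0390) without Dox replicate 2 and 7.25 (1.43e-04) without Dox replicate 1. With only the groups of this line in the fit, the adjusted p was 0.0676. In every line the fitted difference was above 0, from 0.09 in iP+A to 2.43 in iGPA cells among the others. Tbx1 went from 18.1 and 3.71 to 67.6 and 37.0 counts in iGPA cells (2.43, adjusted p = 0.0902), from 27.6 and 7.31 to 71.2 and 29.7 in iAtoh1 cells (1.61, 0.335) and from 13.0 and 26.7 to 59.5 and 51.9 in iG+P cells (1.52, 0.332). Dox libraries lay above untreated ones in these 3 lines. With the replicate block, all 3 were past the threshold, with adjusted p-values of 4.76e-04, 0.0132 and 0.0125. With all untreated libraries as one control, those in iGPA (2.12, 0.0434) and iG+P cells (2.27, 0.0368) were past it.

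Gata3 was the gene of highest level per kb in untreated EBs and was not called in any line. Its differences ran from -0.59 in iGfi1 to 0.58 in iG+A cells, and the widest 95% interval bounds over the 7 lines were -1.23 and 1.22. The iG+A libraries had 447 and 518 counts without and 1143 and 454 with Dox, so the first Dox library was the highest of all 28 and the second lay among the untreated ones. Without Dox replicate 1 the difference was -0.08, and without Dox replicate 2 it was 1.25. In iGfi1 cells it had 794 and 608 without and 404 and 527 with Dox (-0.59, adjusted p = 0.162), and in iG+P cells 818 and 781 without and 603 and 486 with Dox (-0.56, 0.170). Both Dox libraries lay below both untreated ones in these 2 lines, and above them in iPou4f3 cells, with 501 and 722 counts without and 809.7 and 863 with Dox (0.47, adjusted p = 0.441). Gata3 overlaps an opposite-strand gene, 4930412O13Rik, and Kallisto at its default settings, which the authors used, does not separate strands.

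Dlx5 and Dlx6, homeobox genes that lie 9.24 kb apart on chromosome 6 and are expressed in the dorsal otic field, had few counts throughout. Dlx6 had 26.6 and 15.0 counts without and 4.91 and 1.08 with Dox in iG+P cells (-2.59 ± 0.98, adjusted p = 0.04998), a call that lay at the edge of the threshold and was kept in 11 of 37 alternatives. Among the fits that lost it were those without No Dox replicate 1 (-2.19, 0.223), without No Dox replicate 2 (-2.98, 0.0853) and without Dox replicate 2 (-1.83, 0.295). In iG+A cells Dlx6 had 0 and 11.2 counts without and 14.9 and 23.2 with Dox (2.49, adjusted p = 0.0503), and with the replicate block it was past the threshold (0.0226). Without No Dox replicate 2 the difference was 4.29 and called, and without No Dox replicate 1 it was 0.68. The highest Dlx6 counts were in iAtoh1 Dox libraries, at 44.8 and 30.3 against 13.7 and 8.97 without Dox (1.64, adjusted p = 0.244), past the threshold with all untreated libraries as one control (2.27, 0.0224).

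Dlx5 was not called in any line. It had 8.79 and 8.97 counts without and 18.3 and 15.1 with Dox in iAtoh1 cells (0.84, adjusted p = 0.247), and 16.0 in both untreated libraries against 7.73 and 4.12 with Dox in iGfi1 cells (-1.35, 0.0548), past the threshold with quantile normalization (-1.61, 0.0191). Counts were 6.96 and 16.8 without and 12.8 and 39.0 with Dox in iG+A cells (0.98, 0.129). This difference was 1.56 without No Dox replicate 2 and 1.75 without Dox replicate 1. It was 0.40 without No Dox replicate 1 and 0.21 without Dox replicate 2. Groups overlapped in iG+A cells and did not in the other 2 lines. Dox libraries also lay below untreated ones in iPou4f3 cells, with 15.8 and 20.1 counts without and 8.90 and 6.84 with Dox (-1.09, adjusted p = 0.255), and in iG+P cells, with 9.22 and 13.0 without and 4.91 and 4.33 with Dox (-1.09, 0.104). Dlx6 overlaps an antisense gene, Dlx6os1, whose reads cannot be told apart from its own without strand.

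**Figure D3:**
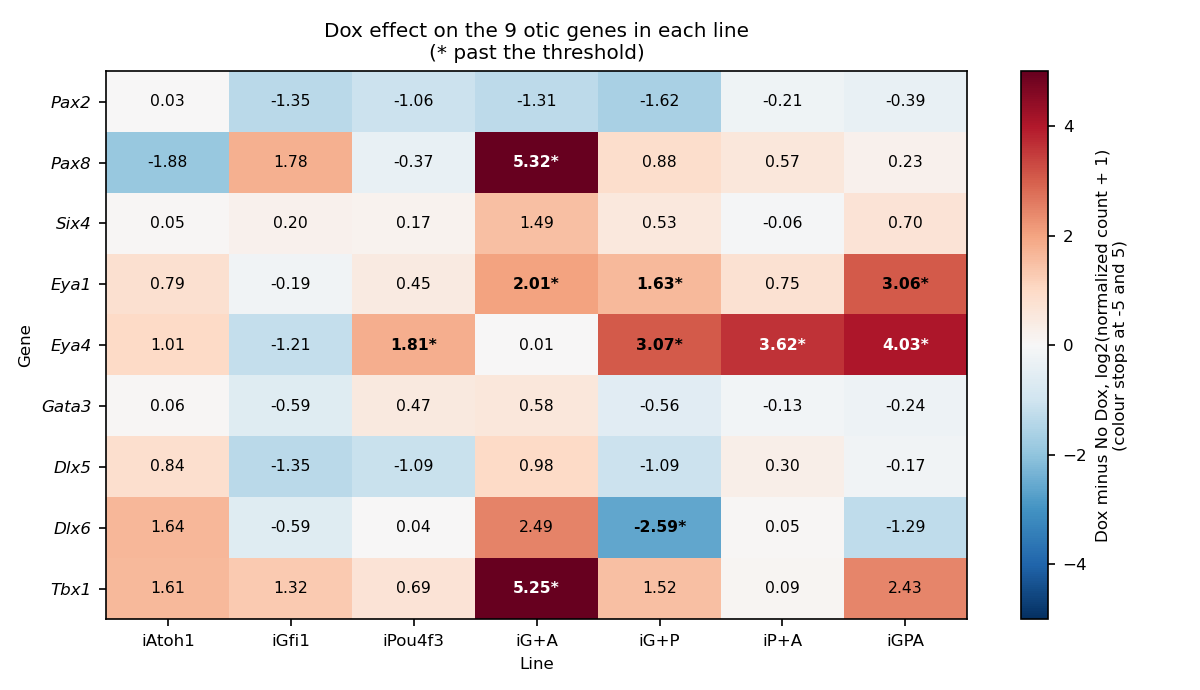
Dox minus No Dox difference of the 9 genes in the 7 lines on the log2(normalized count + 1) scale, with an asterisk for those past the threshold. Eya4 is past it in iPou4f3 (1.81), iG+P (3.07), iP+A (3.62) and iGPA (4.03), Eya1 in iG+A (2.01), iG+P (1.63) and iGPA (3.06), Pax8 (5.32) and Tbx1 (5.25) in iG+A, and Dlx6 (-2.59) in iG+P.

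Averaged over the 7 lines, the Dox effect was past the threshold for 2 of the 9 genes, Eya4 (1.76 ± 0.16) and Tbx1 (1.84 ± 0.43), against 3.33% of all genes upward. Eya1 (1.22 ± 0.11), Pax8 (0.93 ± 0.33) and Six4 (0.44 ± 0.05) had adjusted p-values of 2.25e-08, 0.0220 and 5.95e-07 but a smaller difference than the threshold asks. Gata3, Dlx5 and Dlx6 lay between -0.23 and -0.04.

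To ask what each factor adds, the Dox effects of lines with and without it were compared over the 3 matched pairs of lines that differ by that factor. These comparisons share libraries and are not independent of each other. Adding Gfi1 raised the Dox effect on 2 of the 9 genes, against 4.84% of all genes: Pax8 by 2.70 ± 0.72 (adjusted p = 0.00709) and Eya1 by 1.57 ± 0.24 (4.49e-05). Adding Pou4f3 raised that on 1 gene, against 2.25%: Eya4 by 3.63 ± 0.35 (9.52e-07). Adding Atoh1 raised that on 1 gene, against 3.64%: Dlx5 by 1.55 ± 0.41 (0.00767), a call that was kept in 26 of 37 alternatives and was lost without any 1 of 9 libraries, at the lowest without iG+A Dox replicate 2 (1.29). The Eya1 call was lost without iAtoh1 No Dox replicate 1 (1.39), iAtoh1 Dox replicate 2 (1.46), iG+A Dox replicate 2 or iP+A Dox replicate 1, the last 2 lying just under the fold threshold, and with quantile normalization (1.49). Tbx1 was 2.27 ± 0.93 higher with Gfi1 (adjusted p = 0.0677, and 2.64e-04 with the replicate block), and Dlx6 differed by -2.46 ± 0.80 with Pou4f3 (0.0569, and 0.0242 with the block). With Gfi1, Six4 was higher by 0.85 ± 0.11 (8.66e-06), short of the fold threshold. Also short of it, Eya4 was higher by 1.33 and Eya1 by 1.31 with Atoh1, and Eya1 by 0.95 with Pou4f3. Their adjusted p-values with the replicate block were 0.00586, 6.61e-05 and 0.00175. The median of the 9 differences was 1.31 for Atoh1, 0.23 for Gfi1 and -0.33 for Pou4f3, against 0.01, 0.01 and -0.02 over all genes.

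**Figure D4:**
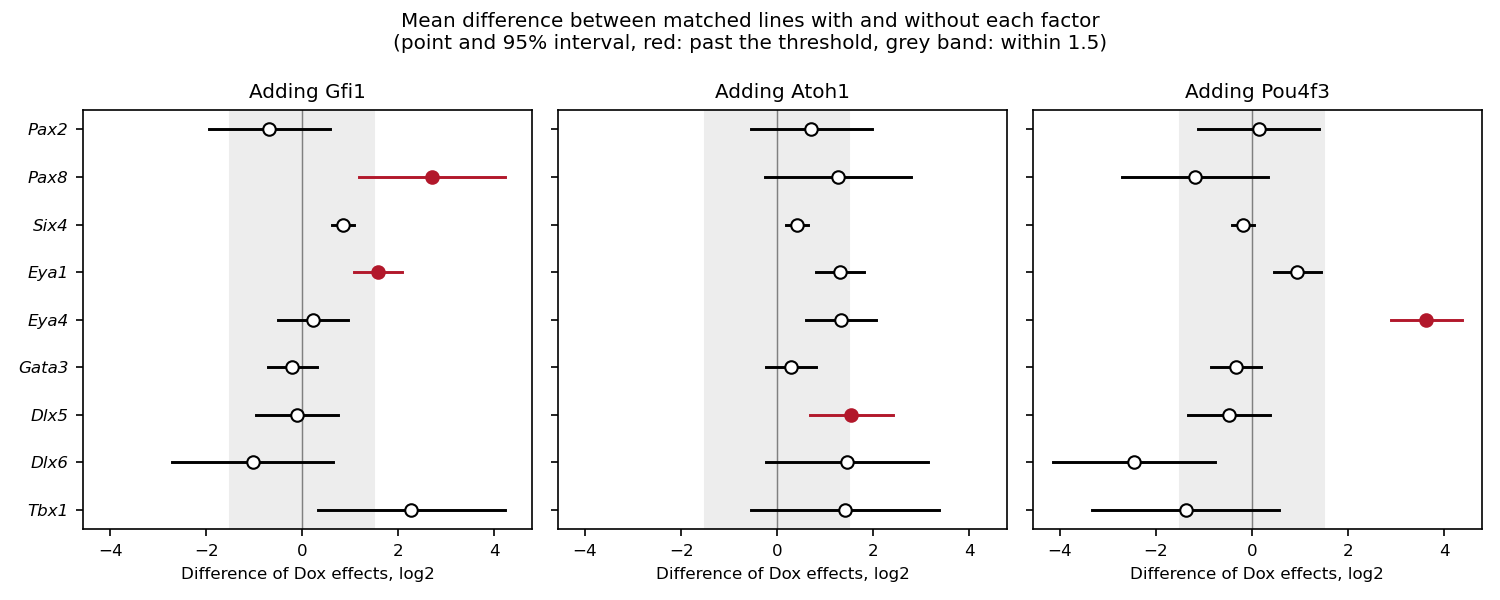
Mean difference of Dox effects between matched lines with and without Gfi1, Atoh1 or Pou4f3 for the 9 genes, as points with 95% intervals on the log2 scale, with red for those past the threshold and a grey band for differences within 1.5. Eya4 stands alone under Pou4f3 (3.63), Pax8 (2.70) and Eya1 (1.57) are red under Gfi1, and Dlx5 (1.55) under Atoh1.

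The Eya4 effect of Pou4f3 was seen in each matched pair. It was 4.28 ± 0.60 higher in iG+P than in iGfi1 cells (adjusted p = 3.05e-04), 4.02 ± 0.60 higher in iGPA than in iG+A cells (5.14e-04) and 2.61 ± 0.60 higher in iP+A than in iAtoh1 cells (0.0136). The last of these was lost without iAtoh1 No Dox replicate 1 (1.83, 0.0800), iP+A No Dox replicate 1 (2.35, 0.0641) or iP+A Dox replicate 1 (2.59, 0.0528), and with only the groups compared in the fit (adjusted p = 0.112). For Gfi1 and Eya1, the difference was past the threshold between iGPA and iP+A cells (2.31 ± 0.41, adjusted p = 7.32e-04) and short of it between iG+A and iAtoh1 (1.22, 0.0489) and between iG+P and iPou4f3 cells (1.18, 0.0519). For Gfi1 and Pax8, only the pair of iG+A and iAtoh1 cells was past the threshold (7.19 ± 1.25, 6.71e-04), with 1.25 between iG+P and iPou4f3 (0.546) and -0.34 between iGPA and iP+A cells (0.887).

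Counted over the 9 members, 1 was called upward between iG+A and iAtoh1 (4.44% of all genes), 0 between iG+P and iPou4f3 (3.43%), 1 between iGPA and iP+A (4.76%), 3 between iG+A and iGfi1 (5.17%), 2 between iG+P and iGfi1 (1.42%), 1 between iP+A and iAtoh1 (2.09%), and 0 between iP+A and iPou4f3 (1.44%) and between iGPA and iG+P cells (4.24%). Where limma called 0, the members at an unadjusted p under 0.05 numbered 2, 1 and 1 in the same order, against 30.3%, 14.7% and 28.9% of all genes tested. With the replicate block, Tbx1 was also past the threshold upward in 3 of these comparisons. These were iG+A and iAtoh1 (3.64, adjusted p = 0.00133), iG+A and iGfi1 (3.92, 6.15e-04) and iGPA and iP+A cells (2.34, 0.0140). In the main fit, the calls between iG+A and iGfi1 cells were Pax8 (3.53, adjusted p = 0.0443), Eya1 (2.20, 8.56e-04) and Dlx5 (2.33, 0.0214). That of Dlx5 was lost without any 1 of 5 libraries of these lines (down to 1.56 without iG+A Dox replicate 2), and that of Pax8 in 13 of 37 alternatives. Between iG+P and iGfi1 cells, the Eya1 call (1.83, 0.0156) was kept in 33 of 38 alternatives and lost with one control (1.36) and without iGfi1 No Dox replicate 2 (0.0638), iGfi1 Dox replicate 2 (0.0719), iG+P No Dox replicate 1 (0.0806) or iG+P Dox replicate 1 (0.0538).

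Of the cofactors that work with Eya1, Six4 and their relatives, 8 were tested. Calls upward numbered 0 of 8 in iAtoh1 and iGfi1 cells, 1 in iPou4f3 and iG+P, 2 in iP+A and 4 in iG+A and iGPA cells, and Sobp was called downward in iG+P cells (12 upward and 1 downward of 56 pairs, with 4.62% and 3.43% over all genes). Dach1, a partner of these proteins that is named here after its values were seen, was called upward in 5 lines. It had 166 and 103 counts without and 3734 and 3085 with Dox in iP+A cells (4.69 ± 0.34, adjusted p = 1.01e-08) and 137 and 101.2 without and 3622 and 3529.9 with Dox in iGPA cells (4.91 ± 0.34, 2.49e-09). Adding Pou4f3 raised its Dox effect by 2.68 ± 0.27 (2.05e-06). In untreated EBs the list ran from Tle3 (mean 8106 counts), a Groucho corepressor, to Dach2 (82.3).

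Of 28 other otic and preplacodal factors 26 were tested, with 32 calls upward over 14 genes and 8 downward over 5 genes among 182 pairs of a gene and a line (4.62% upward and 3.43% downward over all genes). The list's median difference ran from -0.53 in iG+P to 0.55 in iG+A cells, where 7 of 26 were called upward. Hmx3, a homeobox factor of the otic vesicle, and Sox10, an otic and neural crest factor, were each called upward in 5 lines, Dlx3 in 4, and Gbx2 in 3. In iG+A cells Sox10 went from 5.80 and 14.6 to 756 and 782 counts (6.23 ± 0.63), Hmx3 from 1.16 and 2.24 to 207 and 81.8 (5.63 ± 0.68), and Dlx3 from 117 and 165 to 4935 and 3382 (4.87 ± 0.34). Adjusted p-values were 4.46e-07, 3.61e-06 and 6.54e-09. Lmx1a was called downward in iAtoh1, iG+A and iP+A cells (-2.65, -1.61 and -1.89) and upward in iGfi1 cells (1.85).

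**Figure D5:**
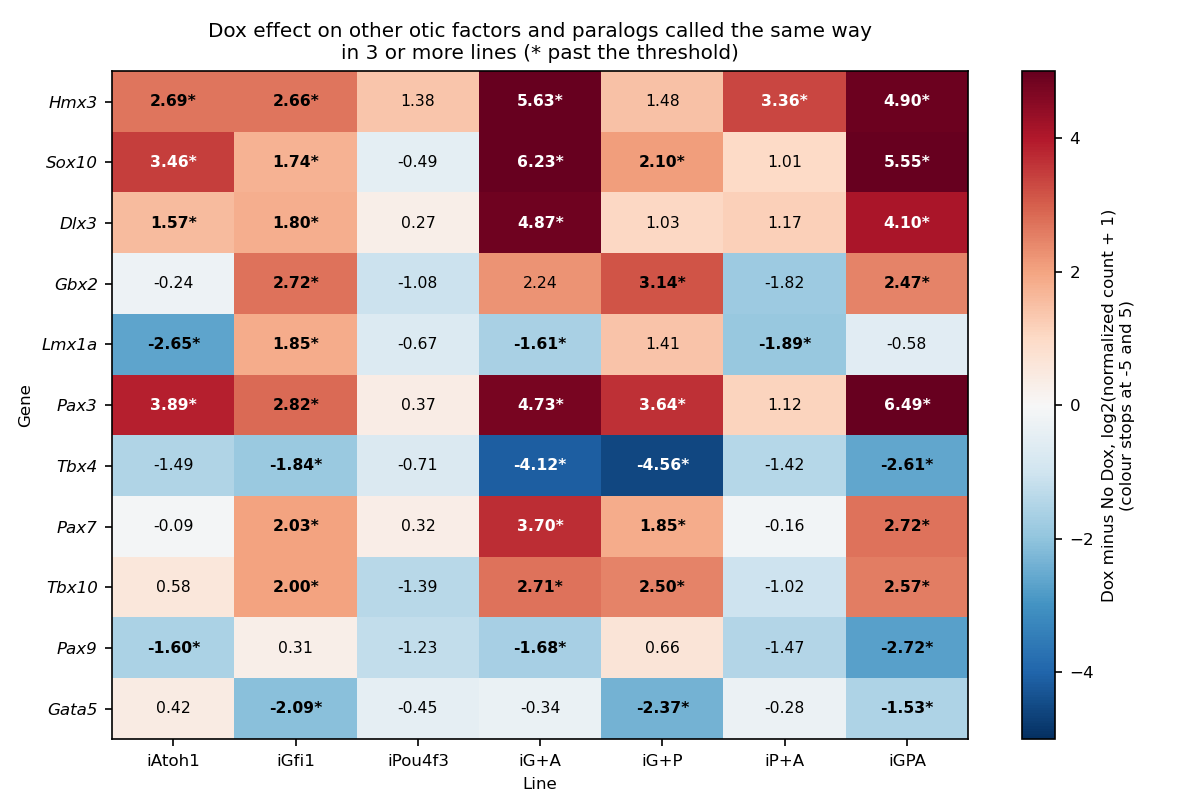
Dox minus No Dox difference of 11 genes, from among the other otic factors and the paralogs of the 9 genes, each called in 1 direction in 3 or more lines, on the log2(normalized count + 1) scale, with an asterisk for those past the threshold. Sox10 (6.23) and Hmx3 (5.63) reach their highest values in iG+A and Pax3 (6.49) in iGPA, and Tbx4 (-4.56) its lowest in iG+P.

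Among paralogs of the 9 genes, the Pax, T-box, Dlx and Gata families each had calls in both directions. Over 28 paralogs and 196 pairs there were 28 calls upward from 10 genes and 17 downward from 8 genes, against the same 4.62% and 3.43%. Pax3 and Pax7, which mark somites, dorsal neural tube and neural crest, were called upward in 5 and 4 lines, and in iGPA cells Pax3 went from 45.3 and 13.5 to 2489 and 2179 counts (6.49 ± 0.82, adjusted p = 4.29e-06) and Pax7 from 5.24 and 5.90 to 43.0 and 41.4 (2.72, 9.03e-04). Pax9 was called downward in 3 lines, to -2.72 in iGPA cells. Of the T-box genes, Tbx10 was called upward in 4 lines, with 2.71 in iG+A cells, and Tbx4 downward in 4, with -4.56 ± 0.44 in iG+P cells. Gata5, unlike Gata3, was called in 3 lines, all downward.

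Defining markers of the otic vesicle spanned a wide range of levels. In untreated EBs Lmx1a had a mean of 434 counts and Hmx3 one of 1.18, and Hmx3 was at 0 in both untreated iP+A and both untreated iGPA libraries. The 8 markers summed to 347 to 981 counts without Dox and to 182 to 1911 with Dox. In iG+A cells 5 of 8 (Hmx2, Hmx3, Sox10 and Fbxo2 among them) were called upward and 1 downward, in iGfi1 cells 4 upward, in iGPA 3, in iG+P 2 upward and 1 downward, in iAtoh1 2 upward and 1 downward, in iP+A 1 each way, and in iPou4f3 cells none, beside the shares of all genes given by line above (17 upward and 4 downward of 56 pairs).

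Markers of other tissues that use these genes were called both in lines where some of the 9 genes were called and in lines where none was. Where Pax8 and Tbx1 were called, in iG+A cells, 6 of 7 somite and muscle markers were called upward (sum of 409 and 385 counts without and 1441 and 2101 with Dox), Myf5 being at 0 in both untreated libraries. There 2 of 7 midbrain-hindbrain boundary markers were called upward and 2 downward (109 and 285 without, 235 and 1402 with Dox). The Dox library with 905 counts of Tbx1, replicate 2, had the higher sum of these and of the somite and muscle markers. It had the lower sum of pharyngeal and cardiac mesoderm markers. Of 6 intermediate mesoderm and kidney markers 2 were called upward and 2 downward (1242 and 1162 without, 1305 and 1483 with Dox), and of 7 pharyngeal and cardiac mesoderm markers 1 each way (8467 and 8943 without, 15367 and 10029 with Dox). Surface ectoderm had 4 of 6 called downward (14062 and 19961 without, 5831 and 2198 with Dox, with Krt5 at 0 in both Dox libraries), endoderm 2 of 7 and blood 3 of 7. In iGPA cells, 6 of 7 somite and muscle markers were called upward as well (293 and 298 without, 3650.3 and 3225 with Dox), with Pax8 near 0. The same list had 5 of 7 called upward in iGfi1 cells (379.8 and 272 without, 1108 and 823 with Dox), where 0 of the 9 genes were called, 4 of 7 in iG+P cells (297 and 308 without, 2418 and 1224 with Dox), 1 each in iAtoh1 and iP+A and 0 in iPou4f3 cells. Of the 6 kidney markers tested in iGPA cells, Lhx1 and Osr1 were called upward, Wt1 was called downward and 3 were not called, and the median difference of the list was -1.28 on the log2 scale, while its summed counts were 1186 and 1260.3 without and 4244 and 5184 with Dox. Over all 7 lines and 49 pairs each, somite and muscle markers had 23 calls upward and 0 downward, midbrain-hindbrain boundary 8 and 5, pharyngeal and cardiac mesoderm 4 and 8, endoderm 0 and 9 and blood 1 and 16. Over 42 pairs each, kidney markers had 6 and 8 and surface ectoderm 0 and 18, and over all genes 4.62% of pairs were called upward and 3.43% downward. The part of these cell types in the results was not tested. Over all lines, untreated means of these lists ran from Myf5 (0.222) to Tbx6 (215), Wnt1 (2.23) to Fgf8 (214), Cdh16 (1.68) to Wt1 (502), Tcf21 (54.6) to Hand2 (5136), Krt5 (2.48) to Krt18 (14888), Afp (24.0) to Gata6 (3576) and Lyl1 (765) to Hbb-bh1 (173221).

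The gene whose log2 values followed each called gene most closely over the 28 libraries was found among all genes tested. It was Tmem178b for Eya4 (Pearson r = 0.963), Arhgap24 for Eya1 (0.950), Trp53i11 for Tbx1 (0.858), Foxf2 for Dlx6 (0.811) and Dclk2 for Pax8 (0.772). The points are libraries that share lines and a Dox or No Dox state, so these values are descriptions of likeness.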

How the data were processed

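RNA of 28 libraries was measured by sequencing of poly(A) RNA (1 µg total RNA, KAPA mRNA HyperPrep, Illumina HiSeq). The authors trimmed reads with cutadapt, quantified transcripts with Kallisto against the UCSC knownGene set of mm9, brought the estimates to gene level by tximport and applied the normalization of DESeq2, in versions not given in the sources used here. The deposited values are on the log2 scale, as log2(normalized count + 1), and they were taken as such. Whole reads could not be recovered (70.2% to 79.4% of values up to 20 came out whole within 0.05), so no count test was run. The interval of the Pax8 ratio treats rounded normalized sums as if they were counts. Of 19421 genes, 107 without a name were kept unnamed.

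Genes that reached 10 normalized counts in 2 or more libraries (16837) entered a fit of all 14 groups with limma 3.58.1 (R 4.3.3, empirical Bayes with a mean-variance trend, 14 residual degrees of freedom), and p-values were adjusted by Benjamini-Hochberg over all of them for each comparison. The threshold was an adjusted p under 0.05 with a log2 difference of at least 1.5. The effect of adding a factor was the mean over 3 matched pairs of lines of the difference between their Dox effects. Scripts were tested on simulated data. Among the other otic factors and the paralogs, genes called in 1 direction in at least 3 lines are named. Results of some genes of these lists are not reported here. The members and the gene lists were chosen with earlier results of these data known.

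Libraries of a line with the same replicate number deviated together in all 7 lines (correlations of 0.103 to 0.246 between No Dox and Dox deviations from their group means), so the numbers were taken to pair them, and a fit with the replicate number of each line as a block was an alternative. The pairing comes from the numbers in the labels and this check alone. The other alternatives changed the pseudocount, the filter on low values, the scaling, the trend, the control libraries, the libraries fitted and the fold threshold, and left out each library in turn.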

Additional observations from a re-analysis of the deposited data

Results flagged for a closer look

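The results below are Dox effects that differed between lines by a test of the difference itself (limma, Benjamini-Hochberg over 16837 genes). These differences share libraries and are not independent of each other, and no explanation was tested.

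Adding Gfi1 raised the Dox effect on Pax8 by 2.70 on the log2 scale (adjusted p = 0.00709) and that on Eya1 by 1.57 (4.49e-05). Among pairs of lines, the Dox effect on Pax8 was 7.19 higher in iG+A than in iAtoh1 cells (6.71e-04), with 1.25 (0.546) and -0.34 (0.887) in the other pairs for Gfi1. Between iG+A and iGfi1 cells, which differ by Atoh1, it was 3.53 higher in iG+A cells (0.0443, past the threshold in 24 of 37 alternatives). Between iGPA and iG+A cells, which differ by Pou4f3, the difference was -5.09 in iGPA relative to iG+A cells (0.0246, in 30 of 37). The Dox effect on Eya1 was 2.31 higher in iGPA than in iP+A cells (7.32e-04). The other pairs for Gfi1, at 1.22 (iG+A minus iAtoh1) and 1.18 (iG+P minus iPou4f3), were short of the threshold. In a pair for Atoh1, the Eya1 effect was 2.20 higher in iG+A than in iGfi1 cells (8.56e-04). In a pair for Pou4f3, it was 1.83 higher in iG+P than in iGfi1 cells (0.0156, past the threshold in 33 of 38 alternatives).

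Adding Pou4f3 raised the Dox effect on Eya4 by 3.63 (9.52e-07). It was 2.61 higher in iP+A than in iAtoh1 cells (0.0136), 4.28 higher in iG+P than in iGfi1 cells (3.05e-04) and 4.02 higher in iGPA than in iG+A cells (5.14e-04). Adding Atoh1 raised the Dox effect on Dlx5 by 1.55 (0.00767), and it was 2.33 higher in iG+A than in iGfi1 cells (0.0214, past the threshold in 31 of 37 alternatives), at 4.12 to 39.0 counts in these 8 libraries.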

How the results depend on the processing

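The 9 upward calls numbered 7 to 13 over the alternatives (8 to 12 with a library left out), and the 1 downward call became 0 with a pseudocount of 0.5, no filter, a filter of 50, rescaling by the 75th percentile or no trend, and 2 with quantile normalization, the replicate block or a log2 difference of at least 1 (0 to 1 with a library left out). Members past the threshold when Gfi1 was added (2) became 1 with a filter of 50 or quantile normalization and 3 with the replicate block or one control (1 to 3 with a library left out). For Atoh1 (1) they became 0 with a pseudocount of 5, a filter of 50 or all untreated libraries as one control, and 3 at a log2 difference of at least 1 (0 to 2). For Pou4f3 (1) they became 2 with a pseudocount of 5, the replicate block or one control (1 to 2). Between untreated lines, 1 became 0 without filter, with quantile normalization, with no trend and with only the groups compared (0 to 1). Other otic factors called downward (8) became 14 at a log2 difference of at least 1. Beyond the values given beside results, the replicate block, with a pairing that rests on equal numbers, also took 1 more difference in the Tbx1 effect past the threshold. It was that of iGPA relative to iG+A cells (-2.82, adjusted p = 0.0153), and the block changed no other call. The sign turned only for effects that had not been called. With one control it turned for Pax8 in iGPA (-0.60), Six4 (0.17), Gata3 (0.16) and Dlx5 (-0.48) in iP+A, Eya4 in iG+A (-0.019) and Dlx6 in iPou4f3 (-0.40). With quantile normalization it turned for Eya4 in iG+A (-0.23) and Pax2 in iP+A (0.0074), and with a pseudocount of 0.5 for Dlx6 in iPou4f3 (-0.0010). With a library of the line left out it turned in 24 fits, none of them of a called effect. It turned for Pax2 in iAtoh1 (-0.55), Pax8 in iPou4f3 (0.99), Eya1 in iGfi1 (0.026), Eya4 in iG+A (-0.31), Gata3 (0.11) and Dlx5 (-0.13) in iP+A, Dlx5 (0.21) and Dlx6 (0.12) in iGPA and Tbx1 in iPou4f3 (-0.095). It also turned for Pax2 (0.20), Pax8 (-0.56) and Gata3 (0.027) in iGPA, Six4 (-0.14) and Gata3 (-0.040) in iAtoh1, Gata3 in iG+A (-0.083), Dlx6 in iPou4f3 (-0.37 and -1.06) and iP+A (-0.12) and Tbx1 in iP+A (-0.013 and -0.025), and in a second fit for Pax8 and Tbx1 in iPou4f3 (0.62 and -0.045), Eya4 in iG+A (-0.021) and Dlx5 in iGPA (0.068). The cause was not tested. A filter of 50 leaves Pax2, Pax8, Dlx5 and Dlx6 untested, and at a few reads per library their differences were not detectable unless large.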
